A study of Homo sapiens with 12 samples.

Results

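The genes described here are the numbered members of the 4 human HOX clusters, HOXA, HOXB, HOXC and HOXD. They were taken by symbol from the annotation of the count files, and 38 protein-coding genes of the 58381 genes counted belonged to the set, 1 further numbered HOXB gene being left out by definition. HOXA held 11 of them on chromosome 7, HOXB 9 on chromosome 17 (48528526 to 48633572), HOXC 9 on chromosome 12 (53938765 to 54056030) and HOXD 9 on chromosome 2 (176092891 to 176190907), in GRCh38 coordinates.

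RNA was sequenced in 12 libraries of VCaP cells, an established prostate cancer line from a bone metastasis that carries the TMPRSS2-ERG fusion. All groups grew in medium with charcoal-stripped serum and added testosterone (T), and each had 3 libraries: VCaP-CT (passage 73) rechallenged for 48 h with 10 nM T, VCaP-CT in its 0.1 nM T, VCaP-T (passage 84) depleted for 48 h to 0.1 nM T, and VCaP-T in its 10 nM T. VCaP-T is a subclone selected for growth with testosterone, and VCaP-CT was grown out of it at low testosterone. Each line is thus 1 lineage, so that line, passage and culture history cannot be told apart, and nothing in the sources used here says that the 3 libraries of a group came from separate cultures, so p-values measure the spread between libraries, which may be technical.

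HOX genes encode homeodomain transcription factors that give cells their position along the body axis. Within a cluster all of these genes lie in one orientation, and their order on the chromosome follows the order in which they act, the low numbers toward the head and the high numbers, called posterior, toward the tail. Adult cells keep part of this code, and in mouse the posterior genes Hoxa13 and Hoxd13 are needed for normal prostate development.

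The libraries held 30.2 to 40.8 M counted fragments. Depleted VCaP-T replicate 2 stood apart, with correlations of log2 normalized counts as low as 0.962 to its sister libraries, against 0.992 for the lowest pair in the other groups. Test results that rest on it are given with and without it, while medians and sums over genes include it. The luminal markers (among them KLK2, KLK3, TMPRSS2, FOLH1, KRT8 and KRT18) were all present in every group. The summed level of 7 fibroblast markers was 147 to 163 normalized counts in rechallenged VCaP-CT and 993 to 1104 in VCaP-CT at 0.1 nM T. It was 699 to 806 in depleted VCaP-T and 254 to 317 in VCaP-T at 10 nM T. In both 10 nM groups 2 of the 7 were at 0. The summed basal markers were at 111 to 132 normalized counts in rechallenged VCaP-CT and 49.8 to 68.8 in VCaP-CT at 0.1 nM T. They were at 93.7 to 155 in depleted VCaP-T and 415 to 476 in VCaP-T at 10 nM T, and so moved with both testosterone and line. KRT5 and TP63 had at most 2 and 11 counts in any library, so this sum rests on KRT14 and KRT15. The endothelial sum was 294 to 313 in VCaP-CT at 0.1 nM T and 466 to 558 in the other groups. It rests on VWF and PECAM1, since KDR and CDH5 had at most 0 and 6 counts. In depleted VCaP-T against VCaP-T at 10 nM T these went opposite ways. PECAM1 was at 110 to 140 against 34.5 to 40.6, and VWF at 380 to 441 against 476 to 518. The blood sum was 6.36 to 28.2 over all libraries. The fibroblast sum was thus higher at 0.1 nM T in both lines, as were several HOX genes below. In VCaP-CT at 0.1 nM T LUM alone gave 821 to 924 normalized counts of it, PDGFRB gave 85.5 to 100 and COL1A1 gave 45.9 to 51.7. COL1A1 was at 171 to 240 in VCaP-T at 10 nM T, so between these 2 groups it went against the sum. COL1A2, COL3A1 and DCN had at most 2, 6 and 6 counts in any library, so the sum rests on few genes. The part of these marker changes in the HOX differences was not tested. In bulk RNA, fewer cells with a transcript and less of it per cell cannot be told apart.

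The cells expressed a posterior-weighted HOXA program with a few HOXC genes. A level is given here in normalized counts (counts scaled to a common library size) per kb of counted exon where genes are compared with each other. On this scale HOXA13 was highest in every group, at 428 ± 3.72 per kb in rechallenged VCaP-CT, 743 ± 17.5 in VCaP-CT at 0.1 nM T, 874 ± 62.0 in depleted VCaP-T and 531 ± 8.64 in VCaP-T at 10 nM T (SD, n = 3 libraries each). HOXA10, known for its role in the genital tract, was next in every group, at 391 ± 6.53, 471 ± 6.09, 654 ± 144 and 512 ± 21.6 per kb in the same order of groups. The full exon length was used here, although fragments on exons shared with other genes were dropped. HOXA10 shares 26.3% of its exon length and HOXA11 30.6%, against 1.69% for HOXA13. The values of HOXA10 and HOXA11 per kb may thus be too low, and their order against HOXA13 is not settled. In VCaP-T at 10 nM T the means of HOXA13 and HOXA10 differed by less than 1 SD of HOXA10, and in VCaP-CT at 0.1 nM T HOXC6, HOXC4 and HOXA9 (258 ± 11.9, 249 ± 4.46 and 247 ± 11.8 per kb), were not separated by their spread.

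**Figure D1:**
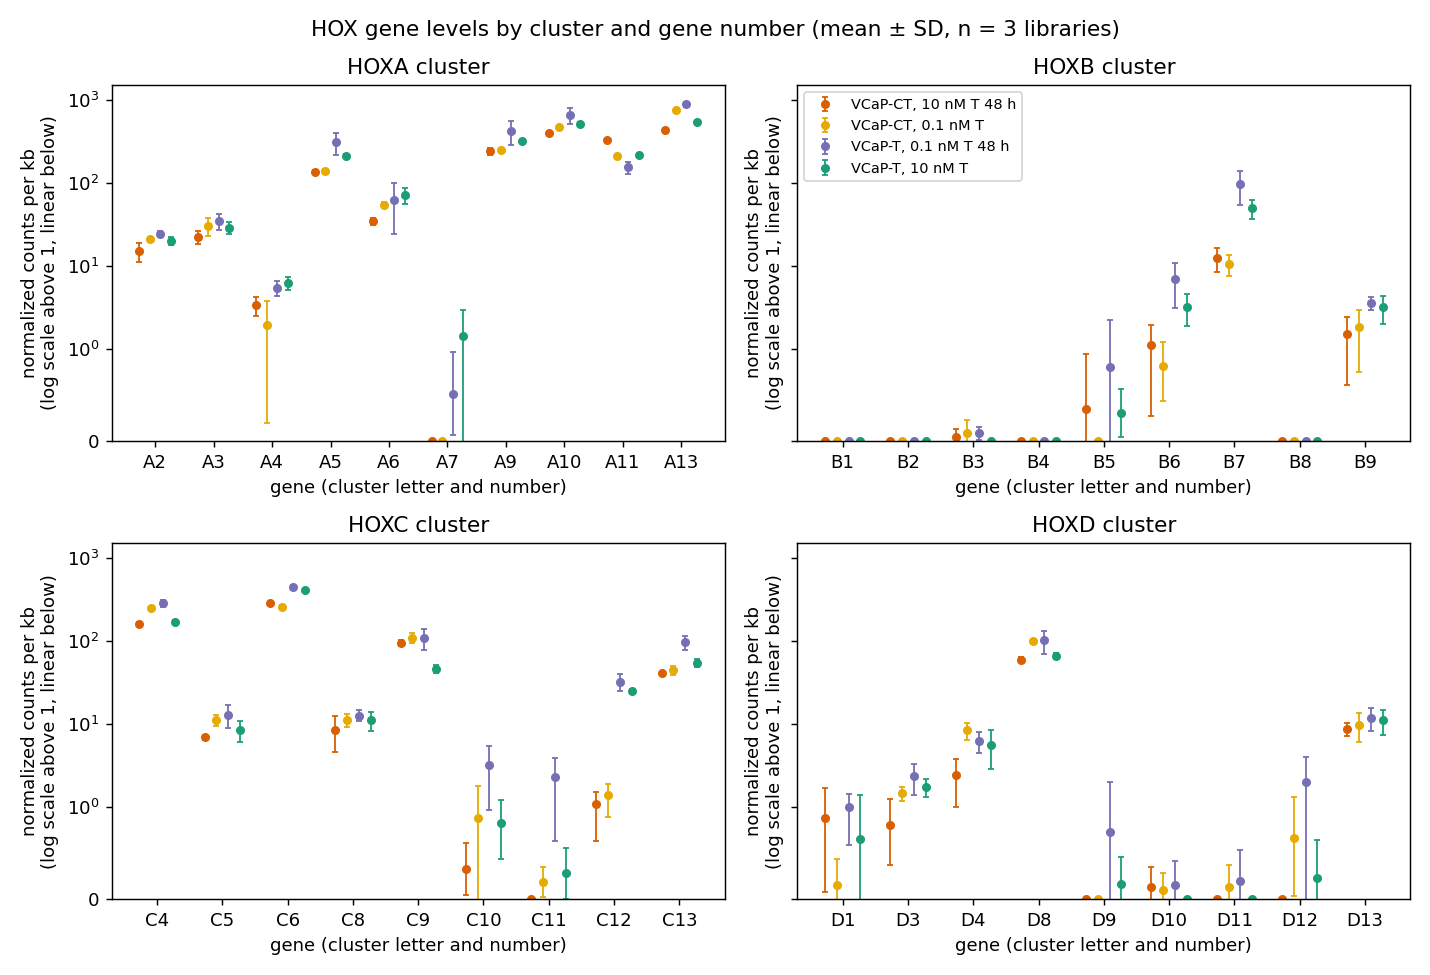
Mean level of HOX genes in normalized counts per kb (vertical axis, log scale above 1 and linear below), by cluster and gene number, with SD over 3 libraries for the 4 groups. HOXA13 has the highest value per kb of full exon length in every group, and most HOXB and HOXD genes lie at or near 0.

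By cluster, HOXA gave 73.8% of the summed HOX counts in rechallenged VCaP-CT, 76.2% in VCaP-CT at 0.1 nM T, 73.2% in depleted VCaP-T and 72.3% in VCaP-T at 10 nM T. HOXC gave 20.3 to 24.4%, HOXD 2.32 to 3.19% and HOXB 0.248 to 1.35%. HOXA13 alone made up 29.1% of all HOX counts in rechallenged VCaP-CT and 39.7% in VCaP-CT at 0.1 nM T, and it made up 35.2% in depleted VCaP-T and 29.1% in VCaP-T at 10 nM T. The lower testosterone level thus had the larger share in each line.

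Of the 38 genes, 22 passed the filter on low counts and were tested, 10 of HOXA, 2 of HOXB, 7 of HOXC and 3 of HOXD. Low counts were not spread evenly. HOXB1, HOXB2, HOXB4 and HOXB8 were listed at 0 in all 12 libraries. The Polycomb genes RING1 and PCGF2, which many cell types use, were listed at 0 as well, so a 0 here does not show that a gene was silent. HOXB3, HOXB5 and HOXB9 reached at most 2, 4 and 11 counts in a library. In HOXD, the untested genes HOXD1, HOXD3, HOXD9, HOXD10, HOXD11 and HOXD12 reached at most 3, 10, 4, 1, 1 and 7 counts. Of these, HOXD1, HOXD3 and HOXD11 share 58.1, 74.1 and 21.4% of their exon length with other genes, where fragments were dropped. HOXA7, with 62.5% shared, reached 7 counts in the midst of an expressed cluster. HOXC10 and HOXC11, with at most 16 and 11 counts, lay between HOXC9 and HOXC12. Of these 2 neighbors, HOXC12 was expressed in VCaP-T but itself had only 2 to 7 counts a library in VCaP-CT.

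Counting ignored strand and dropped fragments that overlapped more than 1 gene, and 12 of the 38 genes share over 20% of their counted exon length with another annotated gene. Among the tested ones these are HOXA4 (47.3%), HOXA6 (40.1%), HOXA9 (27.0%), HOXA10 (26.3%), HOXA11 (30.6%), HOXB6 (32.9%), HOXC5 (59.9%) and HOXD4 (80.5%). Their values are uncertain to that extent. HOXC4 and HOXC6 share smaller stretches (17.8 and 15.7%), partly with each other, and among the tested genes HOXA2, HOXA5, HOXB7, HOXC8, HOXC12, HOXD8 and HOXD13 share none.

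The start regions of 3 genes that passed the test for both changes of testosterone are printed here, because they differ in base composition and because HOXA13 and HOXA11 start beside another gene. Each is RefSeq sequence of GRCh38.p14 from 250 bases before to 50 after an annotated start, read 5′ to 3′ on the gene's own strand. Capitals mark CG pairs, the bases at which promoters can be methylated. HOXA13 lies at chr7:27200042-27200341 (minus strand), HOXA11 at chr7:27185183-27185482 (minus strand) and HOXC4 at chr12:54016638-54016937 (plus strand).
HOXA13: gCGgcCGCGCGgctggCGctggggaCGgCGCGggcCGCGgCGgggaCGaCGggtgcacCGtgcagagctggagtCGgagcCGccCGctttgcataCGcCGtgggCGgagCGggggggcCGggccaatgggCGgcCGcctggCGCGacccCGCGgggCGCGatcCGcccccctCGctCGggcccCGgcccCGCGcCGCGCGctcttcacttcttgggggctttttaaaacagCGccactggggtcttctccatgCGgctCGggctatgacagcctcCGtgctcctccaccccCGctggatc
HOXA11: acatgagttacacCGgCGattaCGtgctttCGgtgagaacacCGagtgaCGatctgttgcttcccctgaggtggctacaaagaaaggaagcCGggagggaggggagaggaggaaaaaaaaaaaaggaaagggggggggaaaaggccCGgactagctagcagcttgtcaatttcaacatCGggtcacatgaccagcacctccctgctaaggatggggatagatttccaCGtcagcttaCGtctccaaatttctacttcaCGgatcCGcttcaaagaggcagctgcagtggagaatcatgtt
HOXC4: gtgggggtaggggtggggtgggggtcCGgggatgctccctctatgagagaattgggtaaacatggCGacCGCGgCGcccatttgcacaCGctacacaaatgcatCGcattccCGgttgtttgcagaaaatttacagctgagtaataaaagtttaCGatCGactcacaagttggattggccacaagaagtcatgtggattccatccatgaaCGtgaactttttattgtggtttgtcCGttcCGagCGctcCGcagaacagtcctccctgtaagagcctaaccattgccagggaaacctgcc

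RefSeq start regions were found for 20 of the 38 genes, in 27 windows, and HOXA5, HOXB7, HOXC9 and HOXC12 were not among them. The HOX-PBX motif TGATTNAT, searched on both strands, was found for HOXA2 and HOXD11, and in 2.82% of all 35116 windows. The HOXA13 window held 44 CG pairs, the HOXA11 window 13 and the HOXC4 window 15, against a median of 22 over the 27 HOX windows and 14 over all windows. By these RefSeq starts HOXA13 and HOXA11 each face a noncoding gene: their starts lie 330 bases from that of HOTTIP and 176 bases from that of HOXA11-AS, on the opposite strand, so that the windows overlap by 171 and 275 bases. In the annotation used for counting, HOTTIP and HOXA11-AS begin at 27198575 and 27184518, within HOXA13 and HOXA11.

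The depletion comparison, of depleted VCaP-T with VCaP-T left at 10 nM T, asked which genes follow testosterone in the dependent line. HOXA13, HOXC4, HOXC9 and HOXC13 rose and HOXA11 fell. A gene is said to rise, fall or pass the test where edgeR's quasi-likelihood test gave a Benjamini-Hochberg adjusted p under 0.01 over all genes tested, and it is called where, in addition, the log2 fold change is over 1 in size and the group medians differ by more than 13 normalized counts. Of the 22 tested HOX genes 5 passed, against 9.97% of all 19162 genes tested, 4 upward (6.15% of all genes) and 1 downward (3.83%), and 1 was called, HOXC9, against 3.14% of all. The median log2 fold change was 0.37 over the HOX genes and 0.04 over all genes. The depleted libraries all lay above the others for 10 of the 22 genes, against 20.4% of all genes, and all below for 2, against 17.6%. By cluster the medians were 0.27 for HOXA, 1.01 for the 2 tested HOXB genes, 0.63 for HOXC and 0.20 for HOXD. All these medians include depleted replicate 2, the highest depleted library for most of the HOX genes, and are not given without it. Without that library HOXB6 was at 0.74 and HOXB7 at 0.53.

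HOXA13 (chromosome 7, 27193503 to 27200106), the last gene of its cluster, had 4513, 4098 and 4718 normalized counts in depleted VCaP-T and 2652, 2731 and 2724 in VCaP-T at 10 nM T. The groups did not overlap, and the log2 fold change was 0.72 (SE 0.07, edgeR adjusted p = 2.9e-05). HOXC4, the lowest-numbered HOXC gene, had 761, 863 and 717 in depleted cells and 475, 436 and 481 at 10 nM T, a change of 0.75 on the log2 scale (SE 0.09, edgeR adjusted p = 1.6e-04). HOXC13, which in skin acts in hair and nail formation, had 229.6, 277 and 192 against 149, 119 and 129.9 (log2 fold change 0.81, SE 0.15, edgeR adjusted p = 0.0029). The groups did not overlap for either HOXC gene. Without VCaP-T at 10 nM replicate 2 or replicate 3, HOXC13 no longer passed (adjusted p = 0.021 and 0.016).

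HOXC9 (chromosome 12, 53994895 to 54003337), a mid-cluster gene, had 172, 234 and 134 normalized counts in depleted VCaP-T and 69.6, 87.8 and 75.4 in VCaP-T at 10 nM T, with no overlap. Its log2 fold change was 1.21 (SE 0.20, edgeR adjusted p = 0.0012). The highest value was that of replicate 2, and without this library the change was 0.99 (edgeR adjusted p = 5.1e-05), just under the fold threshold, so that 0 of the 22 genes were called, against 3.65% of all genes, while 6 passed the test, against 27.1%. The gene that passed in addition without it was HOXC12 (log2 fold change 0.55, edgeR adjusted p = 0.0066). Replicate 2 was the highest depleted library for 15 of the 22 genes and the lowest for 6, and HOXA5, HOXA9, HOXA10 and HOXB7, among those where it was highest, did not pass with or without it. HOXB7 had 109, 221 and 111 in depleted cells and 52.7, 81.2 and 90.9 at 10 nM T (log2 fold change 0.95, edgeR adjusted p = 0.044).

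HOXA11, the neighbor of HOXA13 in the cluster (chromosome 7, 27181510 to 27185223), had 317, 421 and 318 normalized counts in depleted VCaP-T and 504, 497 and 475 in VCaP-T at 10 nM T. It fell by 0.49 on the log2 scale (SE 0.11, edgeR adjusted p = 0.0077), without overlap. Leaving out any 1 of the 11 libraries other than depleted replicate 2 gave adjusted p-values of 0.013 to 0.036, and leaving out that replicate, the highest of the depleted group, gave a fall of 0.63 and 1.6e-06.

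**Figure D2:**
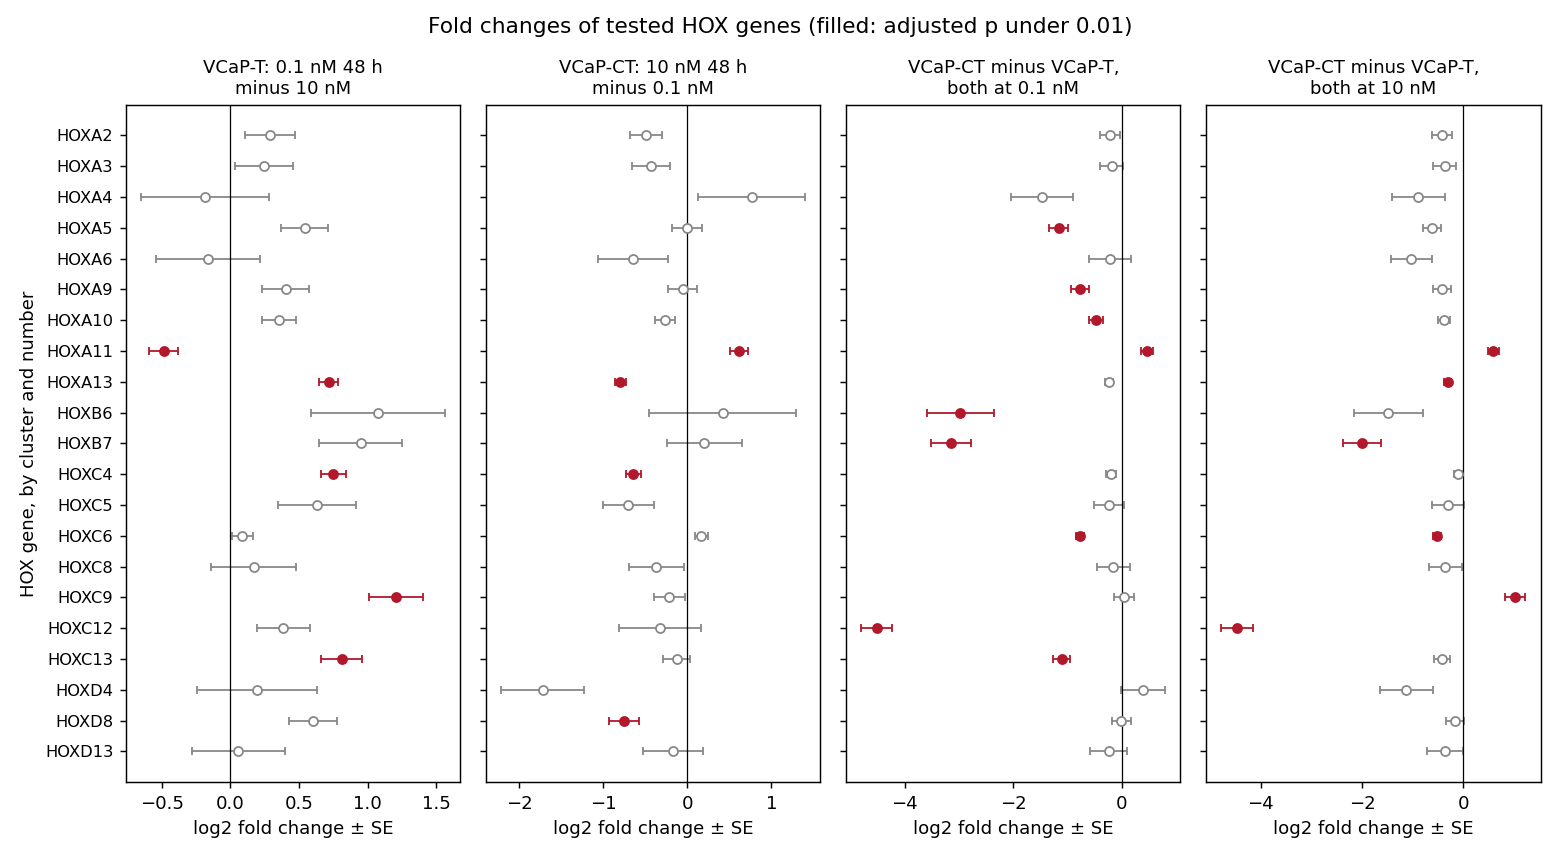
Log2 fold change with SE (horizontal axes) of tested HOX genes, ordered by cluster and number, in 4 comparisons. Filled points have an adjusted p under 0.01. HOXA11 lies on the other side of 0 from HOXA13 in the left and second panels, and HOXC12, HOXB7 and HOXC6 lie below 0 with filled points in both comparisons of the lines.

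The rechallenge comparison, of rechallenged VCaP-CT with VCaP-CT left at 0.1 nM T, asked the same of the adapted line. HOXA13, HOXC4 and HOXD8 fell and HOXA11 rose. Of the 22 HOX genes 4 passed, against 14.3% of all genes, 1 upward (7.07% of all genes) and 3 downward (7.19%). None was called, a count of 0 by edgeR and of 0 by DESeq2 against 5.12% of all genes. The rechallenged libraries all lay above the others for 3 of the 22 genes, against 27.4% of all genes, and all below for 8, against 28.3%. The median log2 fold change was -0.24, against -0.02 over all genes.

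HOXA13 had 2175, 2199 and 2161 normalized counts in rechallenged VCaP-CT and 3679.7, 3851 and 3807 in VCaP-CT at 0.1 nM T (log2 fold change -0.79, SE 0.07, edgeR adjusted p = 7.2e-06). HOXC4 had 405, 452 and 446 in rechallenged cells and 685, 664 and 684 at 0.1 nM T (-0.64, SE 0.09, edgeR adjusted p = 3.1e-04). Neither gene's groups overlapped. HOXA11 had 733, 752 and 742 normalized counts in rechallenged VCaP-CT and 473, 482 and 501 at 0.1 nM T, again without overlap and in the other direction from HOXA13 (log2 fold change 0.61, SE 0.11, edgeR adjusted p = 0.0012). HOXD8, the highest HOXD gene and free of shared exons, had 160.1, 164 and 143 against 263, 274 and 252 (-0.76, SE 0.18, edgeR adjusted p = 0.0088). It no longer passed when any 1 of the 9 libraries other than those of depleted VCaP-T was left out (adjusted p = 0.014 to 0.041).

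A larger value was less certain. HOXD4, mostly under another gene's exons, had 1.22, 5.16 and 4.24 normalized counts in rechallenged VCaP-CT and 13.6, 14.1 and 8.95 at 0.1 nM T (log2 fold change -1.72, SE 0.49, edgeR adjusted p = 0.024). It did not pass the test.

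The difference between the 2 responses, to testosterone in VCaP-CT and to the same contrast in VCaP-T, was tested as an interaction. Among the 22 HOX genes 0 passed, by edgeR and by DESeq2, while 0.965% of all genes passed and 0.564% were called. For HOXA13 the difference was -0.08 on the log2 scale (SE 0.10), for HOXC4 0.11 (SE 0.13) and for HOXA11 0.13 (SE 0.15). The largest unadjusted evidence was for HOXC9 (0.99, SE 0.27, unadjusted p = 0.0031, edgeR adjusted p = 0.081), which rose on depletion in VCaP-T but had 159, 147 and 171 normalized counts in rechallenged VCaP-CT and 173, 167 and 212 at 0.1 nM T. A miss of the threshold does not show that the responses were equal.

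**Figure D3:**
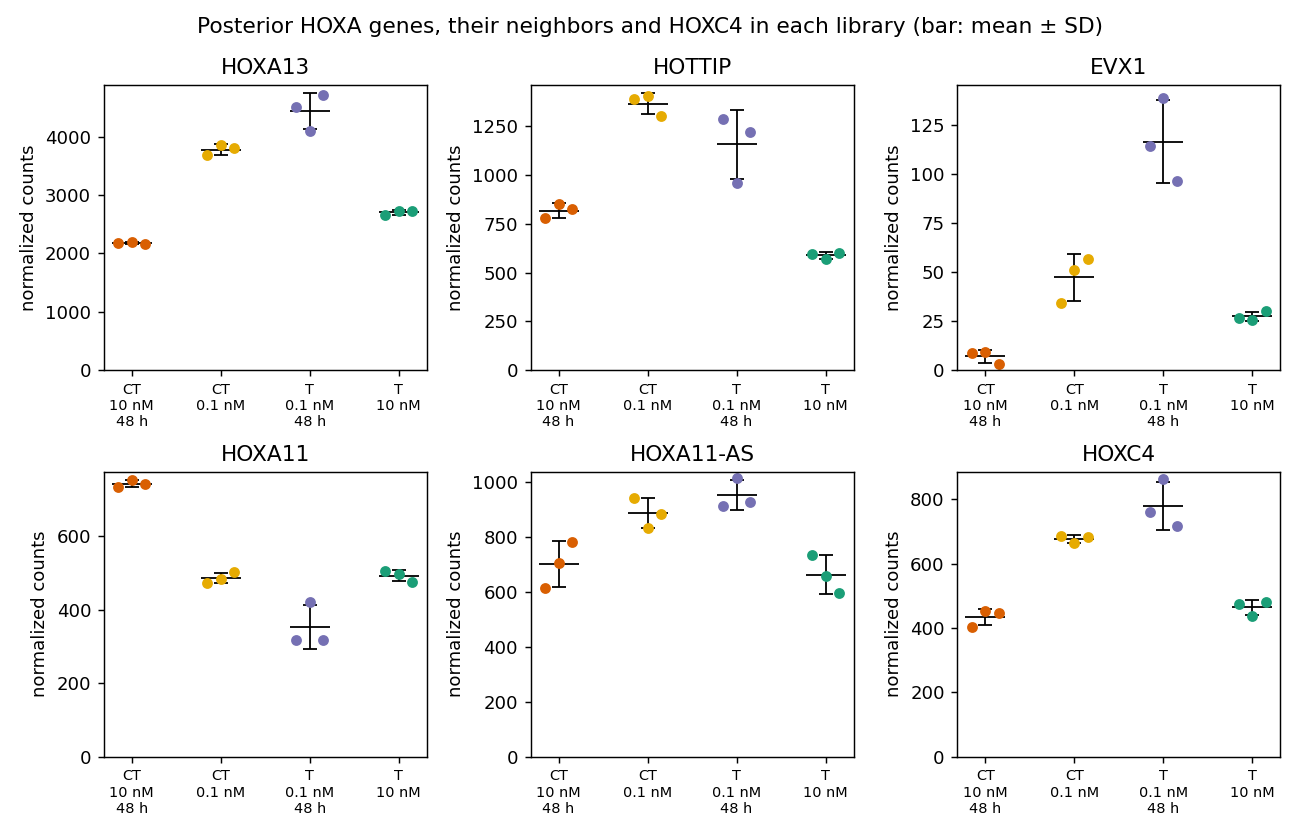
Normalized counts (vertical axes, from 0) of HOXA13, HOTTIP, EVX1, HOXA11, HOXA11-AS and HOXC4 in each of 12 libraries, with bars for mean and SD; CT is VCaP-CT and T is VCaP-T. HOXA11 is lowest in depleted VCaP-T and highest in rechallenged VCaP-CT, and HOXA13 is higher at 0.1 nM T in both lines.

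The genes around HOXA13 were measured as well. HOTTIP (chromosome 7, 27198575 to 27207259), a noncoding RNA known to help keep posterior HOXA genes active, had 777, 849 and 826 normalized counts in rechallenged VCaP-CT and 1389, 1404 and 1305 at 0.1 nM T (log2 fold change -0.74, SE 0.10, edgeR adjusted p = 2.7e-04). In depleted VCaP-T it had 1289.7, 959 and 1222, against 596, 569 and 601 at 10 nM T (0.98, SE 0.10, edgeR adjusted p = 6.3e-05), so it moved in the direction of HOXA13 both times. The difference between the responses of HOTTIP in the 2 lines was 0.24 on the log2 scale (edgeR adjusted p = 0.46), and without depleted replicate 2 it was 0.35 and passed (0.0080). HOTTIP shares 20.1% of its exon length with other genes, where fragments were dropped. EVX1, a homeobox gene beyond the posterior end of HOXA, changed more: it had 8.55, 9.29 and 3.18 in rechallenged VCaP-CT and 34.0, 50.8 and 56.7 at 0.1 nM T (log2 fold change -2.73, SE 0.34, edgeR adjusted p = 1.1e-04). In depleted VCaP-T it had 114, 139 and 96.3, against 26.4, 25.5 and 29.99 at 10 nM T (2.08, SE 0.25, edgeR adjusted p = 1.4e-04).

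HOXA11-AS, transcribed against HOXA11, had 914, 1017 and 927 normalized counts in depleted VCaP-T and 735, 659 and 594 in VCaP-T at 10 nM T. It rose by 0.52 on the log2 scale (SE 0.11, edgeR adjusted p = 0.0055) where HOXA11 fell. It did not pass without VCaP-T at 10 nM replicate 2 or 3, depleted replicate 3, VCaP-CT at 0.1 nM replicate 2 or 3, or rechallenged replicate 2 (adjusted p = 0.010 to 0.030). In rechallenged VCaP-CT it had 613, 707 and 781, against 942, 834 and 883 at 0.1 nM T (-0.34, SE 0.11, edgeR adjusted p = 0.039), which did not pass. HOXA11-AS shares 63.1% of its exon length with HOXA11 and 3 genes that the files name only by identifier, and without strand the reads of the pair cannot be fully told apart.

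In their maintenance media the lines differed in both line and testosterone, with VCaP-CT at 0.1 nM T set against VCaP-T at 10 nM T. HOXB7 and HOXC12 were called lower and HOXC9 higher in VCaP-CT, among 4 called of the 22 genes, against 12.7% of all genes, and 7 passed the test, against 30.6%. At matched testosterone the same lines gave 5 called genes at 0.1 nM T (HOXA5, HOXB6, HOXB7, HOXC12 and HOXC13, all lower in VCaP-CT, against 12.3% of all genes called and 8.68% called lower) and 3 at 10 nM T (HOXB7 and HOXC12 lower, HOXC9 higher, against 10.2%). The numbers that passed were 10, against 29.5% of all genes, and 6, against 25.2%. The median log2 fold changes of the HOX genes were -0.15 in maintenance media, -0.24 at 0.1 nM T and -0.42 at 10 nM T, against 0.00, -0.02 and 0.00 over all genes. These comparisons share libraries.

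HOXC12 (chromosome 12, 53954834 to 53958956), next to HOXC13 at the posterior end of HOXC, was close to the limit of detection in the adapted line. It had 2.44, 3.10 and 5.30 normalized counts in rechallenged VCaP-CT and 3.40, 6.58 and 3.98 in VCaP-CT at 0.1 nM T, from 2 to 7 counts a library. It had 128, 80.9 and 115 in depleted VCaP-T and 85.4, 77.4 and 87.2 in VCaP-T at 10 nM T. No VCaP-CT library came near a VCaP-T library at either level of testosterone. The log2 fold change was -4.46 at 10 nM T (SE 0.31, edgeR adjusted p = 4.7e-07), -4.52 at 0.1 nM T (SE 0.28, edgeR adjusted p = 1.4e-07) and -4.14 in maintenance media (SE 0.29, edgeR adjusted p = 3.0e-07). It did not pass the test for depletion (0.38, edgeR adjusted p = 0.18, and 0.55 with 0.0066 without depleted replicate 2) or rechallenge (-0.33, edgeR adjusted p = 0.72).

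HOXB7, the main HOXB transcript of these cells, had 19.6, 12.4 and 24.4 normalized counts in rechallenged VCaP-CT and 52.7, 81.2 and 90.9 in VCaP-T at 10 nM T (log2 fold change -2.00, SE 0.38, edgeR adjusted p = 0.0012). At 0.1 nM T it had 21.2, 14.1 and 12.9 in VCaP-CT and 109, 221 and 111 in depleted VCaP-T (-3.15, SE 0.36, edgeR adjusted p = 2.6e-05). Every VCaP-CT library lay below every VCaP-T library. Without depleted replicate 2, the highest, the difference at 0.1 nM T was -2.74. Its neighbor HOXB6 was at the limit of detection, with 2.55, 2.82 and 0.995 in VCaP-CT at 0.1 nM T and 19.9, 27.0 and 7.17 in depleted VCaP-T (-2.98, SE 0.62, edgeR adjusted p = 0.0021).

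**Figure D4:**
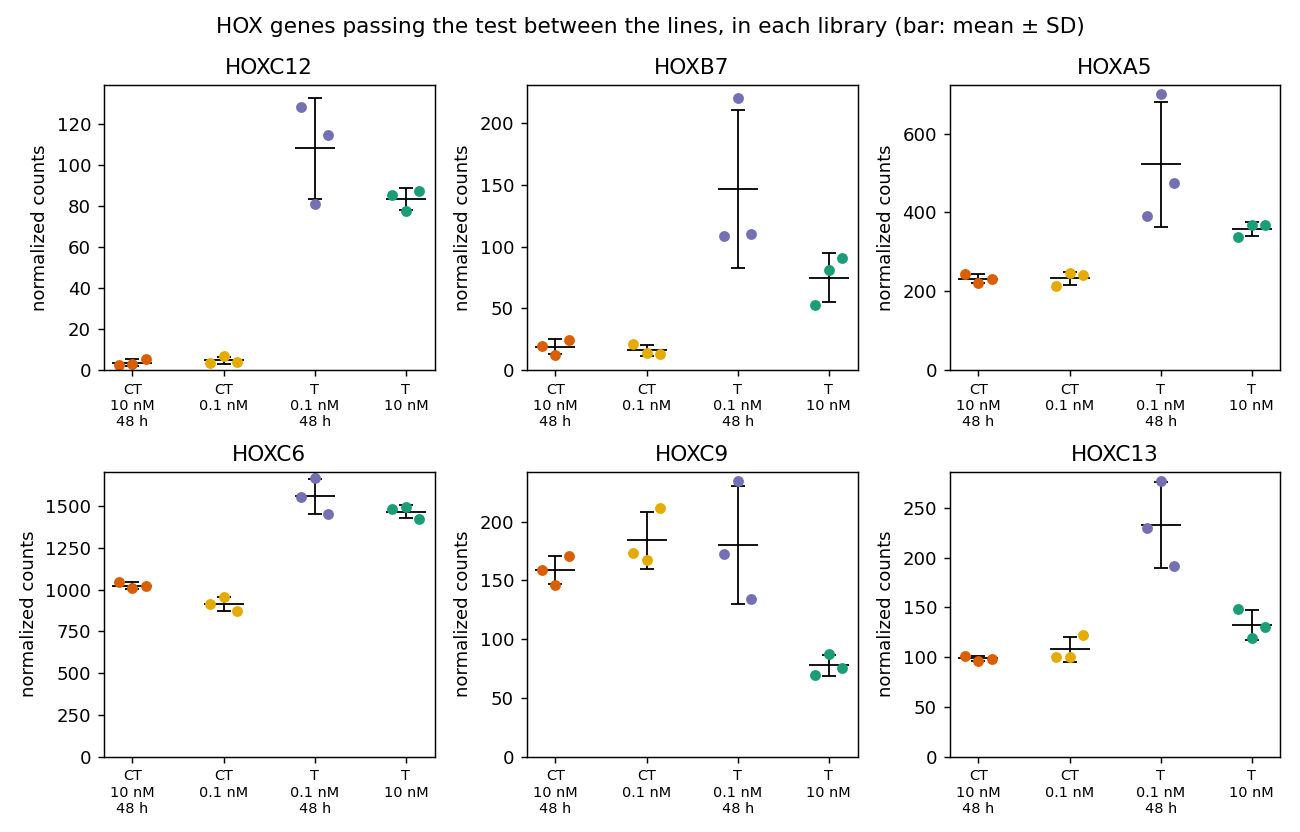
Normalized counts (vertical axes, from 0) of HOXC12, HOXB7, HOXA5, HOXC6, HOXC9 and HOXC13 in each of 12 libraries, with bars for mean and SD; CT is VCaP-CT and T is VCaP-T. HOXC12 has 2.44 to 6.58 in the VCaP-CT libraries and 77.4 to 128 in the VCaP-T libraries, and HOXC9 is lowest in VCaP-T at 10 nM T.

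HOXA5, a mid-cluster gene needed for lung development in mouse, had 214, 245 and 239.8 normalized counts in VCaP-CT at 0.1 nM T and 391, 699 and 475 in depleted VCaP-T (log2 fold change -1.16, SE 0.17, edgeR adjusted p = 2.1e-04). HOXC13 had 100.3, 101 and 122 in VCaP-CT at 0.1 nM T and 229.6, 277 and 192 in depleted VCaP-T (-1.11, SE 0.15, edgeR adjusted p = 1.1e-04). Neither gene's groups overlapped. Both calls, and that of HOXB6, rested on depleted replicate 2. Without it HOXA5 was at -0.89, HOXC13 at -0.97 and HOXB6 at -2.63 with group medians too close for a call, and 2 genes, HOXB7 and HOXC12, were still called, against 12.5% of all genes. HOXB6 also missed the adjusted p without VCaP-CT at 0.1 nM replicate 3 (0.012).

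HOXC6, which is often raised in prostate cancer, was lower in VCaP-CT by every comparison of the lines. It had 1046, 1007 and 1019 normalized counts in rechallenged VCaP-CT and 1481, 1493 and 1422 in VCaP-T at 10 nM T (log2 fold change -0.52, SE 0.07, edgeR adjusted p = 1.8e-04). At 0.1 nM T it had 914, 955 and 871 in VCaP-CT and 1555, 1665 and 1451 in depleted VCaP-T (-0.77, SE 0.07, edgeR adjusted p = 6.7e-06). The groups did not overlap, and testosterone moved it by less: neither depletion (0.09) nor rechallenge (0.16) passed the test.

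HOXC9 was at similar levels in 3 of the groups. It differed by 0.04 on the log2 scale (SE 0.18) between VCaP-CT at 0.1 nM T and depleted VCaP-T. Against VCaP-T at 10 nM T it was higher in VCaP-CT both at 0.1 nM T (1.243, SE 0.19, edgeR adjusted p = 2.6e-04) and at 10 nM T (1.03, SE 0.20, edgeR adjusted p = 0.0014). The fold at 10 nM T fell under the threshold without VCaP-T at 10 nM replicate 1 (0.96) or without rechallenged VCaP-CT replicate 3 (0.97).

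Within HOXA the posterior genes split between the lines. HOXA11 was higher in VCaP-CT at 10 nM T by 0.59 on the log2 scale (SE 0.11, edgeR adjusted p = 8.2e-04) and at 0.1 nM T by 0.47 (SE 0.11, edgeR adjusted p = 0.0039). HOXA13 was lower in VCaP-CT at 10 nM T (log2 fold change -0.31, SE 0.07, edgeR adjusted p = 0.0037), and in maintenance media it was higher (0.48, SE 0.07, edgeR adjusted p = 1.3e-04). At 0.1 nM T the HOXA13 difference was -0.23 (edgeR adjusted p = 0.016), and without depleted replicate 2 it was -0.29 and passed (1.9e-05). HOXA9 and HOXA10 were lower in VCaP-CT at 0.1 nM T (-0.77 and -0.47, edgeR adjusted p = 0.0035 and 0.0075), and without depleted replicate 2, their highest library, the values were -0.47 and -0.28 and still passed (2.1e-05 and 1.3e-04). The HOXA13 value at 10 nM T did not pass when any 1 of its 6 libraries was left out (adjusted p = 0.011 to 0.019), HOXA9 did not without any 1 of the VCaP-CT libraries at 0.1 nM T (0.012 to 0.018), HOXA10 did not without any 1 of the 9 libraries outside depleted VCaP-T (0.012 to 0.030), and HOXA11 at 0.1 nM T did not without depleted replicate 1 or 3 or any 1 of the VCaP-CT libraries at 0.1 nM T (0.012 to 0.020).

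The remaining tested genes passed in none of the 6 comparisons when all libraries were used. Over all 12 libraries HOXA2 ranged from 28.6 to 65.0 normalized counts, HOXA3 from 84.6 to 181, HOXA4 from 0 to 13.2 and HOXA6 from 23.3 to 108. HOXC5 ranged from 10.5 to 31.5 and HOXC8 from 10.999 to 27.0. Without depleted replicate 2, HOXA6 passed at 0.1 nM T, lower in VCaP-CT (log2 fold change -0.62, edgeR adjusted p = 0.0043). HOXD13, the HOXD counterpart of HOXA13, ranged from 14.9 to 34.3, and its groups overlapped in every comparison (log2 fold changes from -0.35 to 0.06). HOXA6 was the gene in which depleted replicate 2 was lowest, at 23.3 against 108 and 107 in its sister libraries.

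Among 19 noncoding genes of the clusters, 18 were matched and 11 tested. Of these 2 rose on depletion and 0 fell, 0 rose and 1 fell on rechallenge, against 9.97 and 14.3% of all genes passing in either direction, and HOTTIP was called in maintenance media, higher in VCaP-CT (1.22, SE 0.10, edgeR adjusted p = 1.9e-06). HOTAIR, the noncoding gene between HOXC11 and HOXC12, reached at most 9 counts. Of 16 tested genes flanking the clusters, EVX1, CALCOCO1 and PRAC1 were called higher on depletion, against 3.14% of all genes called, and EVX1 and CALCOCO1 lower on rechallenge, against 5.12%. PRAC1, a prostate and colon gene beside HOXB, had 2298, 5439 and 2218 in depleted VCaP-T and 1447, 1457 and 1503 at 10 nM T (log2 fold change 1.17, edgeR adjusted p = 0.0096), and without replicate 2 the change was 0.62 and not called, while leaving out any 1 library of VCaP-T at 10 nM, of VCaP-CT at 0.1 nM or of rechallenged VCaP-CT gave adjusted p-values of 0.017 to 0.040. CALCOCO1 changed by 1.07 on depletion and -1.25 on rechallenge (edgeR adjusted p = 0.0019 and 4.4e-04), and its depletion value was not called without depleted replicate 1 or 3 (0.92 and 0.94) or VCaP-T at 10 nM replicate 1 or 3.

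Between the lines, TTLL6 beside HOXB was called lower in VCaP-CT at 0.1 and at 10 nM T (-1.88 and -1.38, edgeR adjusted p = 8.1e-05 and 9.7e-04), and so was EVX1 (-1.30 and -1.95). PRAC1 and PRAC2 were called lower at 0.1 nM T (-1.36 and -1.13), but not without depleted replicate 2 (-0.80 and -0.69), and for PRAC2 not without VCaP-CT at 0.1 nM replicate 2 or 3 either, and ATF2 at 10 nM T (-1.13).

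HOX proteins bind DNA together with partners of the PBX, MEIS and PKNOX families, and 3 of the 7 tested partner genes were called lower in VCaP-CT at both 0.1 and 10 nM T, where 8.68% of all genes were called lower at 0.1 nM T and 10.2% were called in either direction at 10 nM T. MEIS1 had 26.9, 34.0 and 37.1 normalized counts in rechallenged VCaP-CT and 139, 141 and 127 in VCaP-T at 10 nM T (log2 fold change -2.04, SE 0.17, edgeR adjusted p = 1.7e-06). MEIS3 had 62.3, 78.4 and 71.0 against 408, 382 and 359.8 (-2.44, SE 0.12, edgeR adjusted p = 2.1e-08), and PKNOX2 24.4, 18.6 and 26.5 against 97.0, 68.9 and 78.1 (-1.81, SE 0.27, edgeR adjusted p = 2.4e-04). None of these groups overlapped. Of the 7 genes 1 rose on depletion, against 6.15% of all genes, and 3 fell on rechallenge, against 7.19%. In VCaP-CT 1 was higher and 4 lower at 0.1 nM T, against 29.5% of all genes passing in either direction, and 1 higher and 3 lower at 10 nM T, against 25.2%. MEIS3 also passed the test for depletion (0.66) and rechallenge (-0.92), and PKNOX2 was called lower on rechallenge (-1.25), a call that was lost without any 1 of the 6 VCaP-CT libraries or VCaP-T at 10 nM replicate 3.

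Polycomb and trithorax proteins keep HOX clusters silent or active. Of 26 tested Polycomb genes, JARID2, a subunit that accompanies Polycomb complex 2, was called higher in VCaP-CT at both levels of testosterone (1.22 at 0.1 nM T and 1.11 at 10 nM T, edgeR adjusted p = 5.3e-05 and 1.4e-04). At 0.1 nM T 7 of the 26 Polycomb genes were higher and 4 lower in VCaP-CT, against 29.5% of all genes passing, and at 10 nM T 4 were higher and 2 lower, a share near the 25.2% of all genes. The 2 lower at 10 nM T were EZH2 and CBX2, which were also lower at 0.1 nM T and were called at neither level. Leaving out any 1 library gave EZH2 values of -0.74 to -0.65 at 0.1 nM T and -0.52 to -0.46 at 10 nM T. For CBX2 they were -0.49 to -0.34 and -0.85 to -0.76. On depletion 1 of the 26 rose, against 9.97% of all genes passing, and on rechallenge 2 rose and 3 fell, against 14.3%. PHC1 was called higher in maintenance media (1.32) and lower on rechallenge (-1.09, and -0.99 without rechallenged replicate 1, which was not called). Of 12 tested trithorax genes, KDM6A, which removes the methyl mark set by Polycomb complex 2, was called higher in VCaP-CT at both levels (1.21 and 1.05, edgeR adjusted p = 1.0e-05 and 3.9e-05). At either level 2 of the 12 trithorax genes were higher and 1 lower in VCaP-CT, 1 fell on depletion and 0 passed edgeR's test on rechallenge, against 29.5% of all genes passing at 0.1 nM T, 25.2% at 10 nM T, 9.97% on depletion and 14.3% on rechallenge. Among 13 tested CDX and retinoid genes, known to act upstream of HOX genes, ALDH1A3, an enzyme that makes retinoic acid, was called lower on depletion (-1.23) and higher on rechallenge (1.602, edgeR adjusted p = 1.6e-07), and CRABP2 and CRABP1, which bind retinoic acid, were called lower on rechallenge (-1.01 and -1.64). CRABP2 and CDX2 were called higher in VCaP-CT in maintenance media (1.92 and 1.37), ALDH1A3 and ALDH1A2 lower there (-1.22 and -1.21), ALDH1A2 and RXRG lower at 0.1 nM T (-1.54 and -2.67) and at 10 nM T (-1.73 and -2.60), CRABP2 higher at 0.1 nM T (1.09) and ALDH1A1 higher at 10 nM T (1.11). Among these, CRABP1 on rechallenge was lost without any 1 of the VCaP-CT libraries, VCaP-T at 10 nM replicate 1 or 2, or depleted replicate 3. CRABP2 on rechallenge was lost without VCaP-CT at 0.1 nM replicate 2 or rechallenged replicate 1 or 3, and at 0.1 nM T without depleted replicate 1 (0.92). RXRG at 10 nM T was lost without VCaP-T at 10 nM replicate 2 or 3 or any rechallenged library.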

How the data were processed

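The study's authors sequenced poly(A) RNA (TruSeq stranded mRNA, 75-base paired ends), aligned reads with STAR 2.5.4b (GRCh38) and used featureCounts 1.6.2 for fragments per gene of Gencode 28, ignoring strand per the file headers. Fragments that overlapped several genes or mapped to several places were dropped. The deposited counts, 30.2 to 40.8 M per library, were used as they stand, and the authors' table of normalized values was not used. Here all 12 libraries entered 1 edgeR 4.0.16 quasi-likelihood model of 4 groups (R 4.3.3, limma 3.58.1, TMM, filterByExpr), without a replicate block. The model was also run on simulated counts drawn from the means and spread of that fit. P-values were adjusted by Benjamini-Hochberg over the genes tested. Alternatives were RLE factors, no filter, DESeq2 1.42.0, each comparison on its own libraries, a replicate block and leaving out each library. HOX genes called in 1 comparison or more are given by library, other tested genes by range, and the rest by highest count. Of the other lists, genes called are named, at most 4 per list and comparison. HOXA11, HOXA13, HOXC4, HOXD8 and other genes given by library beyond that rule were chosen after their values were seen. The members and all lists were chosen with earlier results of these data known. Sequences came from RefSeq, GRCh38.p14. Some items counted in the totals are not reported here.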

Additional observations from a re-analysis of the deposited data

Results flagged for a closer look

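HOXA10-AS, transcribed against HOXA10 and HOXA9, had 19.6, 38.2 and 31.8 normalized counts in rechallenged VCaP-CT and 42.5, 44.2 and 45.8 in VCaP-CT at 0.1 nM T, and it had 53.9, 20.8 and 51.2 in depleted VCaP-T and 59.0, 57.6 and 56.3 in VCaP-T at 10 nM T. All 3 libraries at 10 nM T lay below those at 0.1 nM T in VCaP-CT and above them in VCaP-T. The difference between the 2 contrasts was -0.97 on the log2 scale (SE 0.42, edgeR adjusted p = 0.29), and without depleted replicate 2, the lowest library, -0.67 (edgeR adjusted p = 0.13), so that it did not pass the test either way. HOXA10-AS shares 62.3% of its exon length with HOXA10, HOXA9 and MIR196B, where fragments were dropped, so its counts come from the remaining part.

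CALCOCO2, which flanks HOXB, had 2344, 2374 and 2268 normalized counts in rechallenged VCaP-CT and 2162, 2221 and 2146 at 0.1 nM T, and it had 3099.9, 3323 and 3268 in depleted VCaP-T and 2539, 2608 and 2861 in VCaP-T at 10 nM T. The libraries of each line again lay apart in opposite directions. The difference between the contrasts was 0.37 (SE 0.10, edgeR adjusted p = 0.072). Without depleted VCaP-T replicate 2, the library that stood apart, it was 0.35 and passed (edgeR adjusted p = 0.0029).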

How the results depend on the processing

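Under RLE size factors, no low-count filter and DESeq2 the numbers of HOX genes called or passing stayed within 1.5 times the reported numbers. Fitted on its own libraries only, depletion gave 0 called and 1 passing, rechallenge 1 called and 7 passing, the lines in maintenance media 11 passing, the lines at 0.1 nM T 5 passing and the lines at 10 nM T 11 passing. That fit has fewer samples behind its spread. Leaving out 1 library gave 0 to 1 called and 3 to 6 passing for depletion, 0 to 1 and 3 to 8 for rechallenge, 4 to 4 and 7 to 10 in maintenance media, 2 to 5 and 5 to 12 at 0.1 nM T, 2 to 4 and 5 to 11 at 10 nM T, and 0 to 0 for the interaction. Each of 32 HOX results was scored by its call, or by its adjusted p where it was not called. Of 543 alternative values, 466 kept direction and met this rule, 77 missed the rule and 0 changed sign. With the replicate number as a block, the calls were 1 for depletion, 0 for rechallenge, 4 in maintenance media, 5 at 0.1 nM T, 3 at 10 nM T and 0 for the interaction, and 4, 4, 7, 8, 5 and 0 passed. The numbers gave no sign of pairing: correlations of same-numbered deviations were -0.157 to 0.0511 over 18 pairs and 0 exceeded 0.1. For different numbers they were -0.131 to 0.158. Taken over all tested genes, low ones included, with 3 libraries a group, they cannot show that the libraries were unpaired. Depth limits HOXB6, HOXC12 and the untested genes, for which a few fragments set the value.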
